A study of Mus musculus with 13 samples.

Results

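Fluid is cleared from the air spaces of the lung by the transport of salt, with water following by osmosis. Sodium enters alveolar and airway epithelial cells through the epithelial sodium channel ENaC, which is built from an alpha, a beta and a gamma subunit, and is pumped out at the basal side by the Na,K-ATPase. Chloride moves through the channel CFTR and the cotransporter NKCC1, and water passes through aquaporins in epithelium and capillaries. These routes are known for keeping the alveoli dry and for clearing oedema after lung injury. The genes examined were the 3 ENaC subunits Scnn1a, Scnn1b and Scnn1g, the pump's beta subunit Atp1b1, the water channels Aqp1, Aqp3 and Aqp4, the chloride channel Cftr and the NKCC1 gene Slc12a2. They were chosen by gene symbol as members of this transport system. All 9 were found among the 20270 genes of the tables, and all 9 passed the filter on low counts that left 15315 genes for testing.

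RNA of the lower right lung lobe was sequenced from mice on the C57BL/6J background. The authors describe the C57BL/6J mice they obtained as males of adult age, and state no sex or age for the CB1R KO mice. The 4 Control libraries came from wild-type mice that received the vehicle. The 5 WT bleomycin libraries came from wild-type mice given 1 oropharyngeal dose of bleomycin, an agent that injures the epithelium and leads to fibrosis. The 4 CB1R KO bleomycin libraries came from mice that lacked the cannabinoid receptor gene Cnr1 in all cells and received the same dose. Lungs given bleomycin were taken at day 14. Uninjured lungs of CB1R KO mice were not analysed here, so a difference of genotype that was present before injury cannot be told apart from a different response to it.

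Library totals were 14615904 to 16662580 estimated counts in 12 libraries and 53463884 in CB1R KO replicate 11, 3.33 times the median of the others. Cnr1 was counted in all libraries, with 27 to 69 estimated counts in Control, 50 to 110 in WT bleomycin and 41 to 188 in CB1R KO. Its level in CB1R KO overlapped that in WT bleomycin, and since the tables do not show which part of the gene was read, directions below rest on the labels. In 3 libraries (Control 26, WT bleomycin 4-B2 and 7) the submitted titles were written in capitals and in the other 10 in lower case. What this stands for is not said. The WT bleomycin libraries differed by title in Scnn1a, Scnn1g, Atp1b1, Aqp4, Cftr and Slc12a2. Values within the lower-case libraries are given for these genes. WT bleomycin 4 and 4-B2 share the number 4 in their titles. What B2 stands for is not said, nor whether the same animal gave both libraries. In whole tissue, fewer cells of a type and less RNA per cell cannot be told apart.

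Levels were compared between genes in TPM, which corrects for transcript length. Aqp1, the water channel of capillaries and red cells, was the highest of the 9, with 539 ± 14.7 TPM in Control (SD, n = 4), 511 ± 22.1 in WT bleomycin (n = 5) and 501 ± 38.1 in CB1R KO bleomycin (n = 4). Atp1b1 followed with 239 ± 45.7, 218 ± 22.6 and 218 ± 26.8 TPM. Scnn1a stood at 231 ± 43.8, 208 ± 33.0 and 187 ± 15.7 TPM, and its range overlapped that of Atp1b1 in each group, although Atp1b1 was the higher in 4 of 4 Control libraries, 4 of 5 WT bleomycin libraries and 4 of 4 CB1R KO libraries. Scnn1g came next with 76.7 ± 3.27, 96.3 ± 8.46 and 84.7 ± 8.92 TPM. Scnn1b held 66.3 ± 3.12, 63.7 ± 6.33 and 54.4 ± 7.00 TPM, below Scnn1g in every library. Slc12a2 was at 32.3 ± 0.782, 33.0 ± 1.17 and 36.2 ± 3.58 TPM, without overlap with its neighbours. The remaining genes were near the bottom, with Aqp4 at 2.25 to 5.00 TPM, Aqp3 at 1.17 to 3.61 and Cftr at 0.943 to 3.77 over all 13 libraries. Aqp4 was above both others in all 13 libraries, and the ranges of Aqp3 and Cftr overlapped in each group, so the order of that pair is not resolved. The counts behind them were small, from 20.8 to 112 estimated counts for Aqp3, 118 to 426 for Aqp4 and 55 to 527 for Cftr, against 6335 to 17260 for Scnn1a.

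The stretches before the transcription starts of Scnn1g, Scnn1b and Aqp1 are shown because these were the 3 genes that passed the test in any comparison. Each is the 250 bases upstream of the start as given by RefSeq on GRCm38.p6, an earlier build than the GRCm39 reference of the counts. RefSeq promoters were matched for 6 of the 9 genes, and not for Aqp4, Scnn1a and Slc12a2. The motifs searched on both strands were the GC box GGGCGG (reverse CCGCCC) and the glucocorticoid receptor half-site AGAACA (reverse TGTTCT), which do not overlap in sequence. Capitals mark GC boxes.
Scnn1g, chr7:121734229-121734478, + strand: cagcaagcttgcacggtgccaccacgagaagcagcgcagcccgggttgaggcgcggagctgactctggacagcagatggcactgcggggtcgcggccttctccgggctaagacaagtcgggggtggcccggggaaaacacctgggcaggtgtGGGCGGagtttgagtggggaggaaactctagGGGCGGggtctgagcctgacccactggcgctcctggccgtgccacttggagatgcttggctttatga
Scnn1b, chr7:121864788-121865037, + strand: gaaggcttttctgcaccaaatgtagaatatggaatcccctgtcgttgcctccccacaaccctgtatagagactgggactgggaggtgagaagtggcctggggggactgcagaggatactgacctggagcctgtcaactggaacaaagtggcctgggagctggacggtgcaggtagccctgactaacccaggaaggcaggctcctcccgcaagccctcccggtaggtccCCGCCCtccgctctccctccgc
Aqp1, chr6:55336049-55336298, + strand: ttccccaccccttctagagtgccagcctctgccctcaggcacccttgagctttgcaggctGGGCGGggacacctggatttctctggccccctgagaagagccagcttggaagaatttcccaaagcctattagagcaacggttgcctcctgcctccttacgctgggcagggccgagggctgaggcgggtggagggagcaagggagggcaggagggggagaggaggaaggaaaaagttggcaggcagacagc

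Scnn1g held 2 GC boxes in this window, and Scnn1b and Aqp1 held 1 each. The GC box was present in 32.7% of the 32851 promoter windows of this length, and the half-site in 16.1%. The half-site was in none of the 6 windows matched, which says only that these letters are not there. Scnn1b and Scnn1g lie next to each other in the same orientation, with GC contents of 60.8% and 65.2% in the stretches shown.

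Bleomycin was followed by a higher level of the gamma subunit of ENaC, while the other members, among them the pump subunit and the water channels, did not pass the test. In the edgeR quasi-likelihood test, 1 of the 9 genes was called higher at an adjusted p under 0.05 in WT bleomycin against Control and 0 were called lower (1, Cftr, was lower at an unadjusted p under 0.05, and DESeq2 called 0 lower). Over all genes tested, 48.9% were called, 25.0% higher and 23.9% lower. The median log2 fold change of the members was -0.088, against -0.0083 over all genes tested. The ranges of 2 members, Scnn1g and Aqp1, did not overlap between these groups, which was so for 40.3% of all genes.

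**Figure D1:**
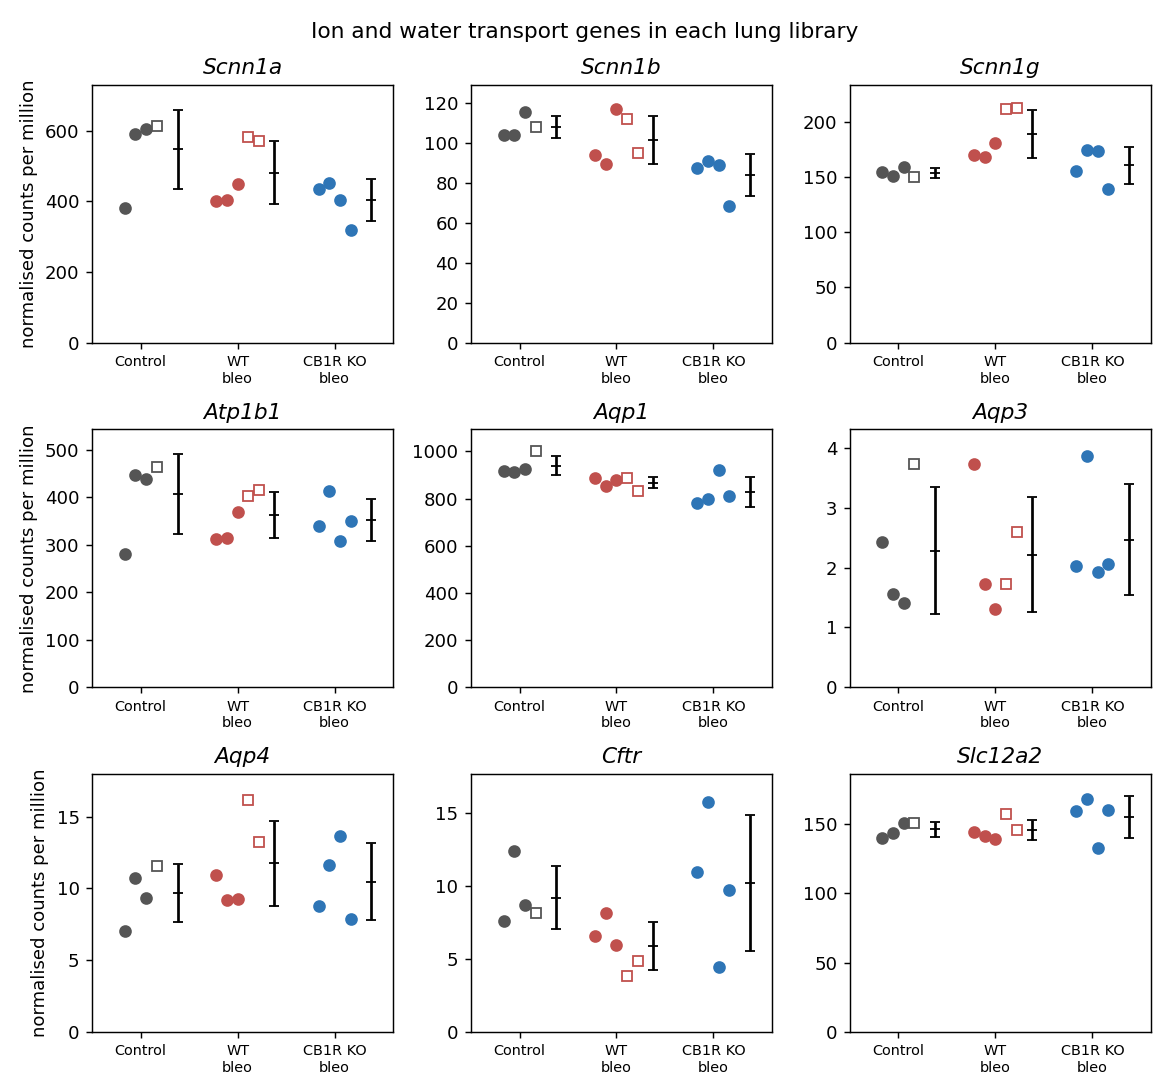
Level of the 9 genes in CPM in each library, by group, on axes that start at 0. Points are libraries, open squares are the 3 libraries with titles in capitals, and the bars beside them give the mean ± SD. Scnn1g in WT bleomycin lies above Control in every library, while Scnn1a and Atp1b1 in Control 3 lie far below the other Control libraries.

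Scnn1g, whose product is cleaved to open the channel, stood at 154, 151, 159 and 150 CPM (counts scaled to library size) in Control 3, 21, 24 and 26. It stood at 170, 168, 181, 211 and 212 CPM in WT bleomycin 4, 2, 5, 4-B2 and 7. Every WT bleomycin library was above every Control library, and the highest were the libraries with titles in capitals. The log2 fold change was 0.30 ± 0.086 (SE, edgeR adjusted p = 0.011), a fold of 1.23. Within the lower-case libraries it was 0.17, and edgeR's adjusted p was 0.16, so the call was lost there. With title style as a term it was kept.

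Scnn1g in CB1R KO was 155, 174, 174 and 139 CPM in replicates 8, 9, 10 and 11, a range that overlapped both other groups. Against WT bleomycin the log2 fold change was -0.23 ± 0.086 (95% interval -0.42 to -0.049, edgeR adjusted p = 0.19), and against Control it was 0.064 ± 0.090 (adjusted p = 0.62). Within the lower-case libraries these were -0.11 and 0.055. These comparisons share libraries and are not independent of each other.

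Scnn1b, the beta subunit, was 104, 104, 116 and 108 CPM in Control 3, 21, 24 and 26. In WT bleomycin 4, 2, 5, 4-B2 and 7 it was 94.3, 89.4, 117, 112 and 95.2 CPM. The CB1R KO lungs 8, 9, 10 and 11 held 87.5, 90.8, 89.1 and 68.4 CPM. All CB1R KO libraries were below all Control libraries, replicate 11 was the lowest of the 13, and WT bleomycin spanned the Control range and reached into that of CB1R KO. Against Control, CB1R KO bleomycin was lower by a log2 fold change of -0.37 ± 0.10 (edgeR adjusted p = 0.011), a fold of 0.776. Without replicate 11 this was -0.27 and still called. Against WT bleomycin the difference was -0.28 ± 0.096 (95% interval -0.48 to -0.073), which did not pass (edgeR adjusted p = 0.16), and WT bleomycin against Control was -0.088 ± 0.095 (adjusted p = 0.47).

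Scnn1a, the alpha subunit that the channel needs to reach the membrane, varied widely within groups. Control 3 held 380 CPM and Control 21, 24 and 26 held 589, 603 and 614. WT bleomycin 4, 2 and 5 held 401, 403 and 449 CPM, and the capital-title libraries 4-B2 and 7 held 581 and 571. CB1R KO replicates 8, 9, 10 and 11 held 435, 452, 404 and 319 CPM. Control 3 thus lay among the injured lungs, and WT bleomycin 4-B2 and 7 lay near the other Control libraries. WT bleomycin against Control was -0.18 ± 0.16 (edgeR adjusted p = 0.35) and CB1R KO against WT bleomycin -0.26 ± 0.16 (95% interval -0.60 to 0.080, adjusted p = 0.43). CB1R KO bleomycin against Control was -0.44 ± 0.17 and just missed the threshold (edgeR adjusted p = 0.051). Without Control 3 it was -0.58 (adjusted p = 0.0076). Within the lower-case libraries Scnn1a was -0.32 in WT bleomycin against Control, -0.055 in CB1R KO against WT bleomycin and -0.38 in CB1R KO bleomycin against Control, and with title style as a term CB1R KO against WT bleomycin was -0.090.

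The 3 subunits kept unequal proportions. Of their summed TPM, Scnn1g made up 25.6% in Control 3 and 19.4%, 19.6% and 18.6% in Control 21, 24 and 26. It made up 25.0% to 27.2% in the 5 WT bleomycin libraries and 24.6% to 27.7% in the 4 CB1R KO libraries. For Scnn1g, Control 3 thus lay within the range of the injured lungs. Scnn1a made up 53.3% in Control 3 and 63.1% to 64.8% in the other Control libraries, against 54.0% to 59.6% in WT bleomycin and 54.7% to 58.9% in CB1R KO. Scnn1b made up 21.1% in Control 3 and 16.4% to 17.4% in the other Control libraries, against 14.3% to 20.3% in the lungs given bleomycin. For Scnn1a, Control 3 thus lay below the range of the injured lungs, on the side away from the other Control libraries. For Scnn1b it lay above both the injured lungs and the other Control libraries. The ratio of Scnn1b to Scnn1g was 0.827 to 0.892 in Control, 0.550 to 0.793 in WT bleomycin and 0.605 to 0.692 in CB1R KO. This ratio did not overlap between Control and either injured group, Control 3 included. The ratio of Scnn1a to Scnn1g was 2.087 to 3.475 in Control, 2.002 to 2.348 in WT bleomycin and 1.973 to 2.38 in CB1R KO. It overlapped in both comparisons with Control, through Control 3. Of single genes, 40.3% were without overlap in log2 CPM between Control and WT bleomycin, Scnn1g among them, and 33.5% between Control and CB1R KO bleomycin. Such a share was not computed for ratios.

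**Figure D2:**
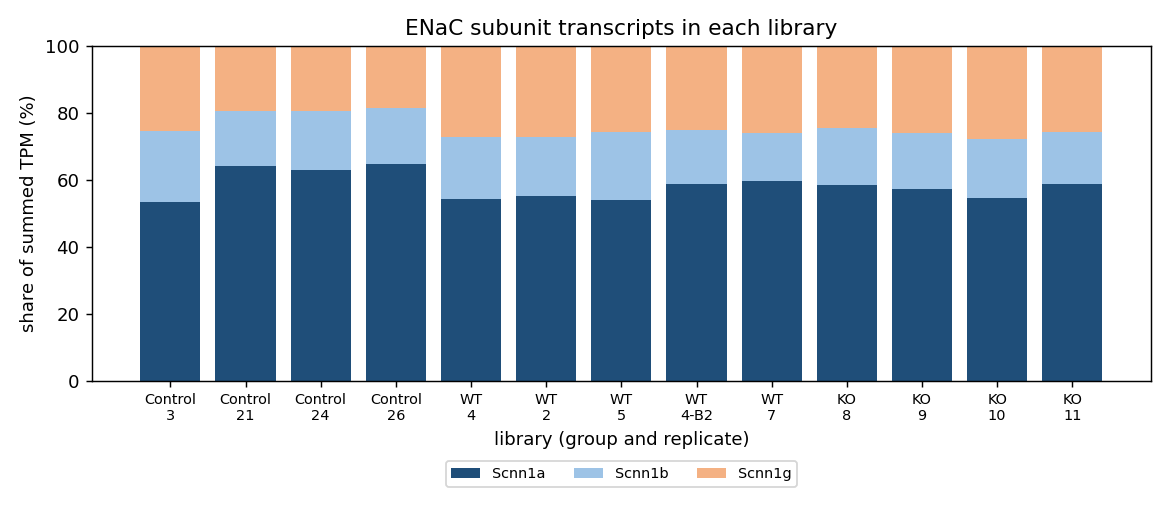
Share of the summed TPM of Scnn1a, Scnn1b and Scnn1g taken by each subunit, in percent, 1 bar per library. Scnn1g takes 18.6% to 19.6% in 3 Control libraries, 25.6% in Control 3 and 24.6% to 27.7% in the lungs given bleomycin.

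Atp1b1, the subunit that carries the pump to the basal membrane, resembled Scnn1a in its spread. Control 3 held 280 CPM, and Control 21, 24 and 26 held 445, 438 and 463. WT bleomycin 4, 2, 5, 4-B2 and 7 held 313, 315, 368, 403 and 415 CPM. In CB1R KO replicates 8, 9, 10 and 11 Atp1b1 was 340, 413, 307 and 349 CPM. Control 3 was the lowest of the 13 libraries, and the groups overlapped in each comparison. The log2 fold changes were -0.17 ± 0.14 in WT bleomycin against Control, -0.041 ± 0.14 in CB1R KO against WT bleomycin and -0.21 ± 0.15 in CB1R KO bleomycin against Control (edgeR adjusted p = 0.35, 0.91 and 0.29). Without Control 3, both comparisons with Control were called, at -0.31 (adjusted p = 0.032) and -0.35 (adjusted p = 0.031). The capital-title libraries were the highest of WT bleomycin. Within the lower-case libraries WT bleomycin against Control was -0.22, and CB1R KO against WT bleomycin turned to 0.086.

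Tsc22d3, which encodes the glucocorticoid-induced protein GILZ and belongs to the list of sodium channel regulators, varied alongside Atp1b1. This gene was picked out after its values were seen. It held 138, 361, 430 and 602 CPM in Control 3, 21, 24 and 26, and 120, 84.6, 147, 148 and 203 CPM in WT bleomycin 4, 2, 5, 4-B2 and 7. In CB1R KO replicates 8, 9, 10 and 11 it held 185, 293, 109 and 208 CPM. Control 3 again lay among the lungs given bleomycin. Over the deviations of the 13 libraries from their group means, Atp1b1 and Tsc22d3 had a Pearson r of 0.94 and a Spearman rho of 0.90, given as a description without a test because the gene was picked on the same libraries. Without Control 3 and CB1R KO replicate 10, the libraries farthest from the median, r was 0.87, and in the 10 lower-case libraries it was 0.94. For Scnn1a r was 0.72, for Slc12a2 it was 0.67, and for the other members it was -0.14 to 0.40. The values of a library share its preparation and depth, and the part of glucocorticoid state in these levels was not tested.

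**Figure D3:**
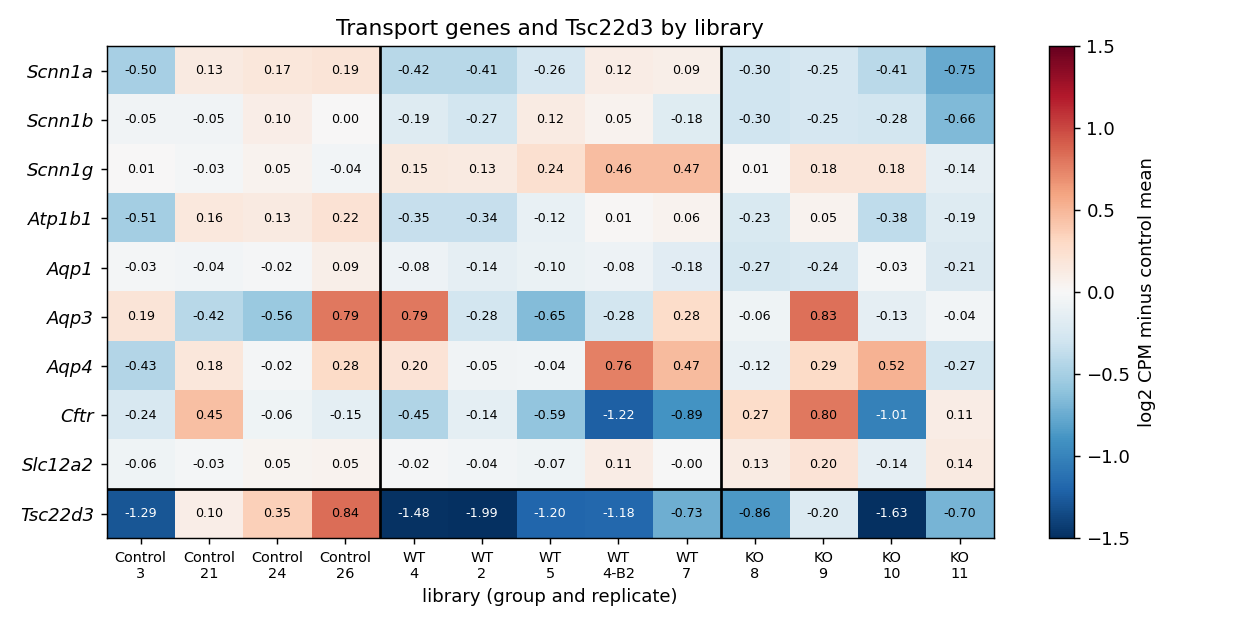
Log2 CPM of the 9 genes and of Tsc22d3 minus the mean of the Control libraries, 1 column per library, with the value in each cell. The colour scale ends at 1.5 in either direction. Control 3 is low in Scnn1a (-0.50), Atp1b1 (-0.51) and Tsc22d3 (-1.29), while its Scnn1g (0.01) is near the Control mean.

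Aqp1 differed little between groups. It held 916, 914, 926 and 1000 CPM in Control 3, 21, 24 and 26, and 888, 854, 878, 888 and 831 CPM in WT bleomycin 4, 2, 5, 4-B2 and 7. CB1R KO replicates 8, 9, 10 and 11 held 779, 796, 919 and 810 CPM. WT bleomycin lay below Control in every library, but the log2 fold change of -0.11 ± 0.062 did not pass (edgeR adjusted p = 0.14). CB1R KO replicates 8, 9 and 11 were below all other libraries, while replicate 10 was inside the Control range. CB1R KO bleomycin against Control was called lower, at -0.19 ± 0.065 (edgeR adjusted p = 0.039, a fold of 0.880), and CB1R KO against WT bleomycin was -0.071 ± 0.062 (95% interval -0.20 to 0.061, adjusted p = 0.60). The call against Control was kept in 6 of 23 other settings, with edgeR, DESeq2 or limma adjusted p between 0.0070 and 0.20 over all of them.

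Markers of the cells that carry Aqp1 shifted by more than Aqp1 did. Of 9 markers of capillary endothelium, 8 were lower in WT bleomycin than in Control, and their summed TPM was 2307 to 2816 in Control, 1620 to 1865 in WT bleomycin and 1849 to 2104 in CB1R KO. Of 7 red blood cell genes, 5 were lower in WT bleomycin, and their sum was 18560 to 22530 TPM in Control, 7926 to 11520 in WT bleomycin and 9121 to 15760 in CB1R KO. Of all genes, 23.9% were lower in WT bleomycin than in Control. No marker of either list was at 0 in any group. Their part in the level of Aqp1 was not tested.

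Aqp3, a water and glycerol channel of airway basal cells, held 2.44, 1.56, 1.41 and 3.74 CPM in Control 3, 21, 24 and 26. WT bleomycin 4, 2, 5, 4-B2 and 7 held 3.74, 1.73, 1.31, 1.73 and 2.59 CPM, and CB1R KO replicates 8, 9, 10 and 11 held 2.03, 3.86, 1.93 and 2.07. The groups overlapped throughout, with 1 or 2 high libraries in each. The 95% intervals ran from -0.81 to 0.73 for WT bleomycin against Control, from -0.61 to 0.90 for CB1R KO against WT bleomycin and from -0.69 to 0.90 for CB1R KO bleomycin against Control on the log2 scale. Each interval holds changes of over 1.5-fold in either direction, so changes of that size were not resolved at this depth.

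Aqp4, a water channel of airway epithelium, held 7.01, 10.8, 9.35 and 11.6 CPM in Control 3, 21, 24 and 26. In WT bleomycin 4, 2, 5, 4-B2 and 7 it held 11.0, 9.20, 9.25, 16.2 and 13.2 CPM, and in CB1R KO replicates 8, 9, 10 and 11 it held 8.77, 11.6, 13.7 and 7.86. The capital-title WT bleomycin libraries were the highest of their group, 4-B2 was the highest of all, and the groups overlapped. The log2 fold change was 0.28 ± 0.21 in WT bleomycin against Control, -0.18 ± 0.21 in CB1R KO against WT bleomycin and 0.11 ± 0.22 in CB1R KO bleomycin against Control (edgeR adjusted p = 0.29, 0.71 and 0.74). Within the lower-case libraries these were 0.12, 0.085 and 0.21.

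Cftr, the chloride channel, showed the widest differences among the members in WT bleomycin against Control and in CB1R KO against WT bleomycin. In CB1R KO bleomycin against Control its log2 fold change was 0.15 ± 0.30 (edgeR adjusted p = 0.74), smaller than that of Scnn1a. Control 3, 21, 24 and 26 held 7.61, 12.4, 8.65 and 8.12 CPM. WT bleomycin 4, 2, 5, 4-B2 and 7 held 6.59, 8.15, 5.94, 3.81 and 4.81 CPM. CB1R KO replicates 8, 9, 10 and 11 held 10.9, 15.7, 4.41 and 9.73 CPM. Only WT bleomycin 2 reached the Control range, and CB1R KO replicates 8, 9 and 11 were above all WT bleomycin libraries while replicate 10 lay among them. WT bleomycin against Control was -0.65 ± 0.30 (edgeR adjusted p = 0.086), and CB1R KO against WT bleomycin was 0.80 ± 0.29 (95% interval 0.17 to 1.42, edgeR adjusted p = 0.19). Neither passed the threshold, and within the lower-case libraries they were -0.46 and 0.56. Without CB1R KO replicate 10, both did, at -0.64 (adjusted p = 0.030) and 1.04 (adjusted p = 0.028).

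Type II cells, which secrete surfactant and carry both ENaC and CFTR, set CB1R KO replicate 10 apart in their markers too. The summed TPM of 9 type II markers was 32340 to 37740 in Control and 19440 to 23210 in WT bleomycin. It was 33720, 37920 and 36590 in CB1R KO replicates 8, 9 and 11 and 24260 in replicate 10. Of these markers, 6 were lower in WT bleomycin than in Control, and 3 (Sftpc, Sftpa1 and Lamp3) were higher in CB1R KO than in WT bleomycin. Of all genes, 23.9% were lower in WT bleomycin than in Control, and 0.979% were called in CB1R KO against WT bleomycin. No type II marker was at 0 in any group. Their part in the level of Cftr was not tested.

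The other epithelial lists moved unevenly. Beside the counts below, 25.0% of all genes were higher and 23.9% lower in WT bleomycin than in Control. Of 8 type I markers, 2 were higher and 3 lower in WT bleomycin than in Control, with sums of 4542 to 4713 TPM in Control, 3834 to 4339 in WT bleomycin and 3845 to 5235 in CB1R KO. Airway secretory markers summed to 83550 to 93970 TPM in Control, 40040 to 60180 in WT bleomycin and 36800 to 47320 in CB1R KO, with 3 of 6 lower and 1 higher in WT bleomycin than in Control. Ciliated cell markers summed to 685 to 785, 383 to 511 and 357 to 561 TPM in the 3 groups, with 2 of 6 lower in WT bleomycin. Of 6 basal cell markers, 1 was higher. In type I markers CB1R KO replicate 10 held 3845 TPM, and replicates 8, 9 and 11 held 4924 to 5235. In ciliated markers it held 357 TPM, against 433 to 561 in those replicates. Its airway secretory sum (44960 TPM) and basal sum (4.40 TPM) lay inside their range. No marker of these lists was at 0 in any group, and their part in the levels of the ENaC subunits was not tested. Among the cells outside the epithelium, 3 of 5 fibroblast and 4 of 5 macrophage markers were higher in WT bleomycin than in Control, and of 4 mesothelial markers 1 was higher and 1 lower.

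Slc12a2, which loads chloride into the cell, differed least of the 9 genes between WT bleomycin and Control. It held 140, 143, 151 and 151 CPM in Control 3, 21, 24 and 26, and 144, 142, 140, 158 and 146 CPM in WT bleomycin 4, 2, 5, 4-B2 and 7. The CB1R KO libraries 8, 9, 10 and 11 held 160, 168, 133 and 161 CPM. Replicates 8, 9 and 11 exceeded every other library, and replicate 10 was the lowest of all 13. WT bleomycin against Control was -0.0046 ± 0.067 (95% interval -0.15 to 0.14), and CB1R KO against WT bleomycin was 0.091 ± 0.067 (-0.052 to 0.23), with edgeR adjusted p of 0.96 and 0.52. Within the lower-case libraries WT bleomycin against Control was -0.025. Over the 23 other settings CB1R KO against WT bleomycin was 0.052 to 0.16.

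Loss of CB1R was not followed by a called change in any member under bleomycin. In CB1R KO against WT bleomycin 0 of the 9 genes were called by edgeR, where 0.979% of all genes were. DESeq2 and limma also called 0. At an unadjusted p under 0.05, edgeR found 3 (Scnn1b and Scnn1g lower, Cftr higher), beside 17.0% of all genes. The ranges of 0 members were without overlap, against 5.60% of all genes. In CB1R KO bleomycin against Control, 2 members were called lower (Scnn1b and Aqp1) and 0 higher, where 35.4% of all genes were called and 16.3% were called lower. The range of 1 member, Scnn1b, did not overlap, against 33.5% of all genes. The Control and WT bleomycin libraries enter more than 1 of these comparisons.

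**Figure D4:**
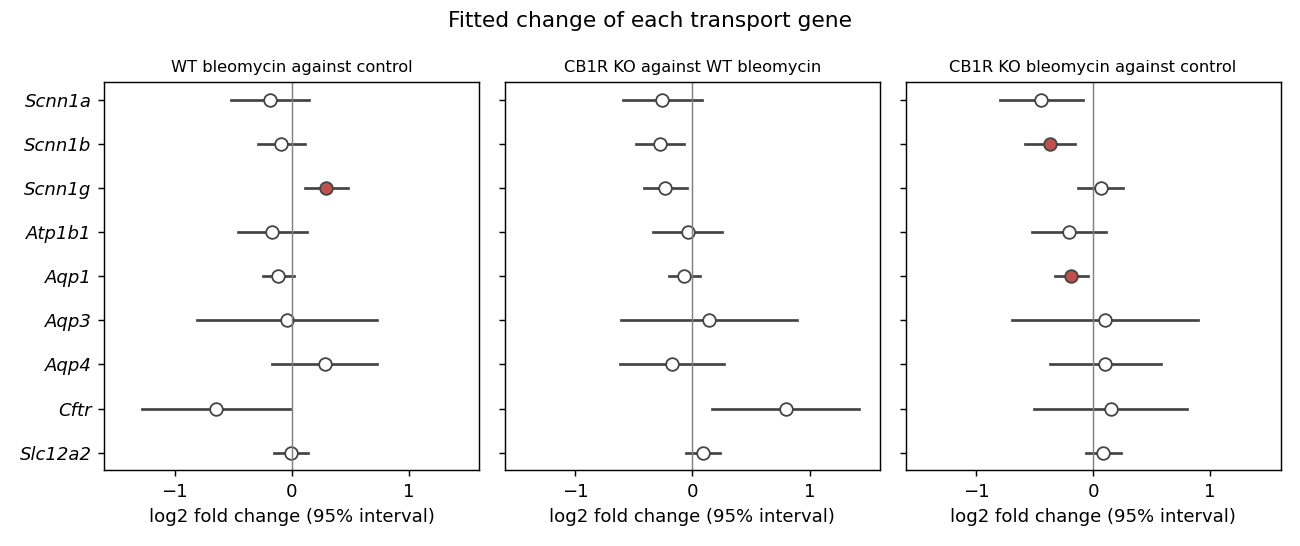
Log2 fold change of each gene in the 3 comparisons, with 95% intervals from the edgeR fit, and filled points where the adjusted p was under 0.05. Scnn1g is called in WT bleomycin against Control (0.30), no gene in CB1R KO against WT bleomycin, and Scnn1b (-0.37) and Aqp1 (-0.19) in CB1R KO bleomycin against Control.

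Several proteins that switch ENaC on and off had larger log2 fold changes than its subunits. Of 16 sodium channel regulators, 5 were higher and 5 lower in WT bleomycin than in Control, where 25.0% of all genes were higher and 23.9% lower. Hsd11b2, the enzyme that inactivates corticosterone, was 1.29 to 1.86 CPM in Control and 6.34 to 9.62 in WT bleomycin, a log2 fold change of 2.33 ± 0.21 (edgeR adjusted p = 1.2e-06). The activating proteases matriptase, St14, and furin, Furin, were also higher, by 0.75 ± 0.072 and 0.69 ± 0.077. Lower were the mineralocorticoid receptor Nr3c2 (-1.28 ± 0.15), the glucocorticoid receptor Nr3c1 (-0.54 ± 0.057) and the channel-activating protease prostasin, Prss8 (-0.47 ± 0.093). Activating proteases therefore moved in both directions, and both steroid receptors fell.

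Among 9 tested subunits of the pump, 4 were higher and 2 lower in WT bleomycin than in Control, where 25.0% of all genes were higher and 23.9% lower. The pump regulators Fxyd6 (1.41 ± 0.16) and Fxyd5 (0.75 ± 0.15) were higher. Fxyd1, phospholemman, fell by 0.98 ± 0.15 on the log2 scale.

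Of 5 other aquaporins tested, Aqp11, an intracellular channel, was lower (-1.14 ± 0.16, edgeR adjusted p = 4.9e-05) and 0 were higher. Aqp5, the water channel of type I cells, was looked up after the values were seen. It was 204 to 251 CPM in Control, 218 to 293 in WT bleomycin and 250 to 297 in CB1R KO, and WT bleomycin against Control was 0.19 ± 0.090 (adjusted p = 0.088). Among 22 chloride, bicarbonate and proton carriers, 6 were higher and 3 lower, where 25.0% of all genes were higher and 23.9% lower. The potassium-chloride cotransporter Slc12a4 (0.43 ± 0.060) and the sodium-bicarbonate cotransporter Slc4a7 (0.56 ± 0.094) were higher. The bicarbonate transporter Slc4a5 (-1.32 ± 0.13) and the scaffold Slc9a3r2 (-0.86 ± 0.093) were lower. Slc26a4, the chloride-bicarbonate exchanger pendrin, named after its values were seen, was 2.06 to 23.7 CPM in Control and 36.7 to 49.9 in WT bleomycin, at 2.37 ± 0.50 (edgeR adjusted p = 0.0012). Without Control 21 it was 3.84, and DESeq2 gave no adjusted p for Slc26a4.

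Epithelial potassium channels set the voltage that drives chloride exit, and 3 of 6 tested were higher and 2 lower in WT bleomycin. Of all genes, 25.0% were higher and 23.9% lower. Kcnn4 (1.06 ± 0.16), Kcnk1 (0.66 ± 0.19) and Kcne3 (0.60 ± 0.22) were higher, and Kcnq1 (-0.47 ± 0.083) and Kcne2 (-0.69 ± 0.17) were lower. Kcne3 averaged 1.22 CPM in Control, and its call was kept in 11 of 22 other settings. It was lost in DESeq2, limma and the lower-case libraries, among others, with edgeR, DESeq2 or limma adjusted p up to 0.21. Over all 58 listed genes that could be tested, 18 were higher and 13 lower, with a median log2 fold change of 0.18 against -0.0083 over all genes. Called genes were thus 31 of 58, beside the 48.9% over all genes, and nothing particular to these lists is read from that count.

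**Figure D5:**
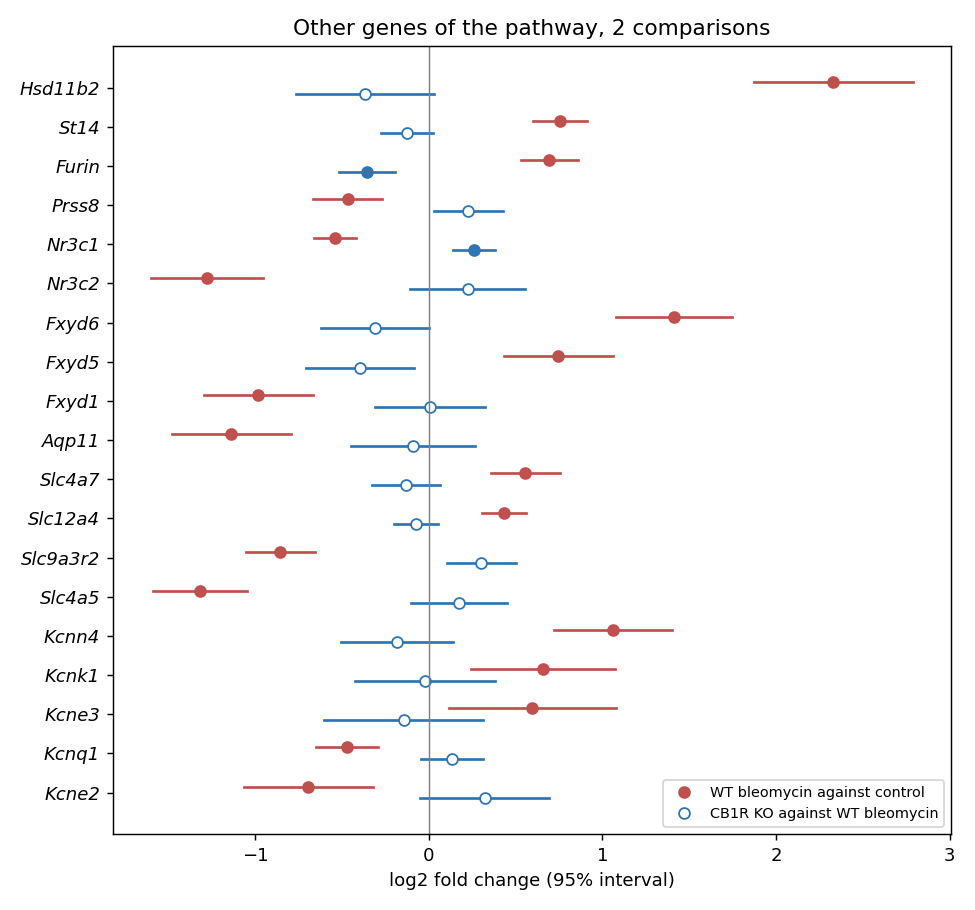
Log2 fold change with 95% interval of the other genes of the pathway chosen by rank within their list, in WT bleomycin against Control (red) and CB1R KO against WT bleomycin (blue), filled where the adjusted p was under 0.05. Hsd11b2 lies farthest to the right (2.33) and Slc4a5 farthest to the left (-1.32), and Furin and Nr3c1 are the filled blue points.

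In CB1R KO against WT bleomycin, 3 of the 58 were called, where 0.979% of all genes were, among them Nr3c1 and Furin. Nr3c1 was 196 to 208 CPM in CB1R KO and 157 to 185 in WT bleomycin, higher by 0.26 ± 0.057 (edgeR adjusted p = 0.044). Furin was 177 to 211 against 211 to 275 CPM, lower at -0.36 ± 0.076 (adjusted p = 0.041). Both lay between Control and WT bleomycin in their CB1R KO mean. All 3 calls were lost with title style as a term, within the lower-case libraries and in the fit of the 2 groups alone. Over the 23 other settings, Nr3c1 was called in only 8 and Furin in only 10. In CB1R KO bleomycin against Control, 14 of the 58 were higher and 11 lower, where 35.4% of all genes were called and 16.3% were lower.

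The genes most like each member were found by the mean absolute difference over the 13 libraries in log2 CPM centred on the Control mean. For Scnn1a these were Timp3 (0.090) and Deptor (0.11), and for Scnn1b Sdr39u1 (0.072) and Glis3 (0.076). For Scnn1g they were Rab5c (0.055) and Farp1 (0.057), and for Atp1b1 Sgsm3 (0.064) and Slc35g1 (0.081). Aqp1 was nearest to Atrnl1 (0.043) and Hgs (0.045), and Slc12a2 to Mtfr1l (0.040) and Stx12 (0.044). The genes of low count had no near match, with Mkx (0.23) and Jaml (0.24) for Aqp3, Ucp2 (0.15) and 4930562C15Rik (0.15) for Aqp4, and Enpep (0.24) for Cftr. The median distance of all other genes was 0.27 from Slc12a2 and Aqp1 and 0.54 from Cftr.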

How the data were processed

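Kallisto was run by the authors on an Ensembl mouse reference (GRCm39), and the deposited values are estimated counts and TPM, each summed over the protein-coding transcripts of a gene. Estimated counts were rounded to whole numbers, filtered with filterByExpr, scaled by TMM and fitted with edgeR 4.0.16 (R 4.3.3, glmQLFit and glmQLFTest) on all 13 libraries in 3 groups, and p-values were Benjamini-Hochberg adjusted over 15315 genes. A gene was called at an adjusted p under 0.05. SE is the log2 fold change divided by the square root of F. CPM are TMM-scaled and log2 CPM used a prior count of 2. TPM served to compare genes and were not tested except in alternatives with limma 3.58.1. DESeq2 1.42.0 was a further alternative. The fit was tested on simulated data. The members and lists were chosen with earlier results of these data known. Genes outside the members were named as the 3 lowest p in each direction per list among those called in WT bleomycin against Control, every listed gene called in CB1R KO against WT bleomycin, Cnr1, and the 2 genes most like each member. Some genes that this rule names are not reported here. Groups and replicates follow the labels, whose numbers are not shared between groups. The labels do not state that samples are separate animals, and the p-values weigh differences of group means against the spread between these samples. Of the TPM columns, 1 matched no sample and was not used. Files of single samples hold the same values. Intervals are for the difference of group means, and their width comes from the spread between libraries.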

Additional observations from a re-analysis of the deposited data

Results flagged for a closer look

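Each of the 27 sets of values (9 genes in 3 groups) was examined for a value standing apart. A value was flagged when its gap to its nearest neighbour exceeded Dixon's critical share of the group's range, and 5 were. Chance alone gives about 1 in 20 sets. The sets are not independent of each other, and Scnn1a and Atp1b1 had a Pearson r of 0.85 over deviations from group means. Control 3 stood low in Scnn1a at 380 CPM and in Atp1b1 at 280 CPM. CB1R KO replicate 11 stood low in Scnn1b at 68.4 CPM. Control 26 stood high in Aqp1 at 1000 CPM, and CB1R KO replicate 9 stood high in Aqp3 at 3.86 CPM.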

How the results depend on the processing

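Each result was recomputed without the filter on low counts, with RLE and upper-quartile factors, with title style as a term, in the lower-case libraries, in fits of the 2 groups compared, with CB1R KO replicate 11 thinned, in DESeq2, in limma on log2(TPM + 1) and log2(TPM + 0.1), and without each replicate. The cause of a change was not tested unless fewer samples were fitted. No paired analysis was possible because the groups share no replicate numbers. Scalings moved the median of all genes by under 0.02 on the log2 scale.

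In WT bleomycin against Control, members called numbered 1, but 0 in the lower-case libraries and 2 in the fit of 2 groups, and 1 to 2 without single replicates (2 without Control 3 or CB1R KO 10). In CB1R KO against WT bleomycin they numbered 0 to 1 without single replicates (1, Cftr, without CB1R KO 10). In CB1R KO bleomycin against Control the count of 2 became 1 without the filter, with title style, in the lower-case libraries, in the fit of 2 groups and in both limma fits, 3 with upper-quartile factors and in DESeq2, and 1 to 3 without single replicates. Scnn1b was called in all 23 alternatives, with an adjusted p of 0.0039 to 0.037. The 3 pathway genes called in CB1R KO against WT bleomycin became 0 with title style, in the lower-case libraries and in the fit of 2 groups, 1 in both limma fits and 0 to 5 without single replicates (5 without CB1R KO 10).

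Directions that turned were all of uncalled members. In WT bleomycin against Control, Aqp3 was 0.32 in the lower-case libraries and -0.31 to 0.29 without single replicates. Slc12a2 was 0.030 and 0.031 in limma and -0.030 to 0.015 without single replicates. In CB1R KO against WT bleomycin, Aqp4 was 0.050 with title style and 0.085 in the lower-case libraries. Atp1b1 was 0.080 and 0.086 there, 0.00063 and 0.00062 in limma, and -0.13 to 0.020 without single replicates, and Aqp3 was -0.14 to 0.41. In CB1R KO bleomycin against Control, ranges without single replicates were -0.18 to 0.44 for Aqp3, -0.043 to 0.24 for Aqp4 and -0.13 to 0.40 for Cftr. Depth limits Aqp3 most, at 20.8 to 112 estimated counts a library.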
